A study of Mus musculus with 14 samples.

Results

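Cells make cholesterol from acetyl-CoA and draw on the same precursor for fatty acids, and the transcription factors SREBP-2 and SREBP-1 switch on most of the enzymes. The set described here holds 38 genes, found by symbol among the 55367 gene symbols of each of 2 deposited count tables, and every symbol was present in both. It comprises 7 enzymes of the mevalonate steps, 11 of the squalene and sterol steps, 5 genes that control SREBP, 4 of sterol transport and storage, 2 LXR receptors, 3 LXR targets and 6 genes of fatty acid synthesis. For a comparison with the LXR targets (Abca1, Abcg1 and Mylip), the 18 enzymes of both sterol branches, Insig1 and Stard4 were grouped as 20 SREBP2 targets.

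SREBP proteins are held in the endoplasmic reticulum by SCAP and the INSIG proteins when sterols are plentiful. When sterols run low, SCAP carries them to the Golgi, where they are cut and released to activate the genes of synthesis. LXR receptors respond instead to oxidised sterols made when cholesterol is abundant, and they turn on genes that move cholesterol out of the cell. In macrophages and other phagocytes the LXR branch is known for handling the cholesterol that arrives with engulfed material.

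The samples were mouse lineage-negative primary bone marrow cells of wild-type genotype, grown with SCF, IL6 and IL3 and transduced with lentivirus, in 2 experiments. The first compared luciferase, a control insert, with the SETBP1-D868N mutant, at 3 libraries each. In the second all cells carried SETBP1-D868N and received DMSO, the solvent, or 2.5 µM PF-9363, an inhibitor of MYST histone acetyltransferases, for 4 days, at 4 libraries each. Insert expression came from a vector (pSMAL) in a bulk culture of mixed cells, and the labels do not say whether libraries came from separate mice or cultures, so p-values measure only the spread between these libraries.

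Depth ran from 60147266 to 68730322 counts per library with luciferase and SETBP1-D868N, and from 7083731 to 10359093 with DMSO and PF-9363. The experiments were prepared differently and were not tested against each other. Luciferase library 1 stood apart from libraries 2 and 3 (chi-square per degree of freedom over genes of 24.6 and 25.2, against 2.21 between the latter). Without it 22 members were called lower and 2 higher with SETBP1-D868N, against 23 and 2 with it. The mouse Setbp1 row held 5 to 6 counts in luciferase, 20 to 24 in SETBP1-D868N, 0 to 2 in DMSO and 0 in every PF-9363 library. Whether that row can take reads of the inserted mutant is not given in the sources used here. The progenitor markers Kit and Myb were present at 69.7 and 314 CPM (counts scaled to a common library total) in DMSO, beside markers of macrophages, mast cells and neutrophils. Whether the same cells or different ones carried these markers cannot be told from such libraries. In bulk RNA of this kind, fewer cells of a type and less RNA per cell cannot be told apart.

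The promoters of 30 members are listed in RefSeq's table for GRCm38.p6, in 39 windows running from 250 bases before to 50 after the start. The sterol regulatory element core TCACNCCAC, searched on both strands, was found in 1 of the 39 windows, that of Hmgcs1, against 1.24% of all 32851 windows. No member window held the strict LXR repeat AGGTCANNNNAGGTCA, and 0.0152% of all windows did. A looser form chosen after these results were seen, GGTNANNNNNGGTCA, lay in 3 of the 39 member windows, those of Abca1, Fasn and Srebf1, against 0.207% of all windows. These 4 sequences are shown as the member windows with the sterol element or the looser LXR form. With PF-9363 Abca1 rose and the other 3 genes fell. Each is printed 5′ to 3′ on the strand of its gene, from 250 bases to 1 base before the start, with the match in capitals.
Hmgcs1 (chr13:119690101-119690350, plus strand): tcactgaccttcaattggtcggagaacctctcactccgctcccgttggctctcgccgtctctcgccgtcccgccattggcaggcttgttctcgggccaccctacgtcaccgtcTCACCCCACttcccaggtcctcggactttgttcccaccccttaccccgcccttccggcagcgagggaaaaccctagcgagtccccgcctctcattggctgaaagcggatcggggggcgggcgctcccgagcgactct
Abca1 (chr4:53159896-53160145, minus strand): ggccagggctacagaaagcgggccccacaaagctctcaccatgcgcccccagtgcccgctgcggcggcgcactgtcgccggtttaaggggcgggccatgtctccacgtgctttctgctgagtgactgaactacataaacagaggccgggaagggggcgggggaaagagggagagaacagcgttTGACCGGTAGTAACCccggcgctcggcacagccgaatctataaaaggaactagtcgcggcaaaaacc
Fasn (chr11:120824548-120824797, minus strand): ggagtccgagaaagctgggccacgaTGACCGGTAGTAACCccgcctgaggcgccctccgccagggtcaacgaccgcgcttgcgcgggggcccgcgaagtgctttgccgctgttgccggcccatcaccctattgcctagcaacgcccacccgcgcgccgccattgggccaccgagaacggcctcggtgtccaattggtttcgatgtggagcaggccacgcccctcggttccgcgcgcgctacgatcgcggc
Srebf1 (chr11:60210472-60210721, minus strand): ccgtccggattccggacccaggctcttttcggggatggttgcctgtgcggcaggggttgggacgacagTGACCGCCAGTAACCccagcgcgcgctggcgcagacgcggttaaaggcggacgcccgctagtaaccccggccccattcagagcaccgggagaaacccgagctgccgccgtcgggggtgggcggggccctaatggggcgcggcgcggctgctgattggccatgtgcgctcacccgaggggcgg

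The Hmgcs1 match lies from 137 to 129 bases before the start. The LXR-type match lies from 67 to 53 bases before the start in Abca1, from 225 to 211 in Fasn and from 182 to 168 in Srebf1, read on the opposite strand in all 3. Abca1 and Fasn carry the same 15 bases there, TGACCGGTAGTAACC. With PF-9363 Abca1 rose by 2.89 on the log2 scale, whereas Fasn fell by 1.24, Srebf1 by 1.12 and Hmgcs1 by 0.72. Srebf1 has other windows too, and the one shown lies inside the gene (chr11:60199089-60222581 in GENCODE M21). Which start its counts came from was not examined. SREBP proteins are known to act beside NF-Y, which binds the CCAAT box, and Sp1, which binds the GC box. The 5 letters of the former lay in 15 of the 19 windows of SREBP2 targets (78.9%) against 37.4% of all windows. The GC box, searched as GGGCGG on both strands, lay in 16 of 19 (84.2%) against 35.7%. Among windows of the genes tested in the first experiment the shares were 37.7% and 59.4%. A match describes letters in these windows, not a bound site.

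Most of the pathway was lower with SETBP1-D868N by small amounts. The larger falls were those of Abca1 (-1.47 on the log2 scale), Scd1 (-0.76), Abcg1 (-0.68), Fdps (-0.51) and Scd2 (-0.50). All 38 members passed the filter on low counts, together with 15794 genes in all. By edgeR's quasi-likelihood test at an adjusted p under 0.05, 23 members were lower (60.5%; 22.7 percent of all genes tested were called lower), 2 were higher (24.5 percent of all genes) and 13 were not called. The median log2 fold change was -0.15 over the members and 0.00 over all genes. Abca1 was the only member at least 2-fold lower, a size reached downwards by 2.48 percent of all genes, and none was 2-fold higher, against 1.34 percent. Members whose libraries did not overlap between groups numbered 26 lower and 2 higher, against 27.3 and 29.4 percent of all genes. Scaling by library size alone ended the calls of Fdft1, Sc5d, Stard4, Nr1h2 and Acly (adjusted p from 0.0716 to 0.297 by edgeR).

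With PF-9363 the changes were larger and parted by role, as nearly all enzymes of synthesis fell while the genes of export, lysosomal transport and storage rose. All 38 members were tested among 13456 genes. By edgeR's test 29 were lower (76.3%; 39.4 percent of all genes were called lower), 7 were higher (18.4%; 36.6 percent of all genes) and 2, Ebp and Scap, were not called. The median log2 fold change was -1.14 over the members and -0.04 over all genes. Falls of at least 2-fold were called in 22 members, against 18.1 percent of all genes, and rises of that size in 5, against 15.8 percent. Groups did not overlap in 28 members that were lower and 7 that were higher, against 36.3 and 34.0 percent of all genes.

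**Figure D1:**
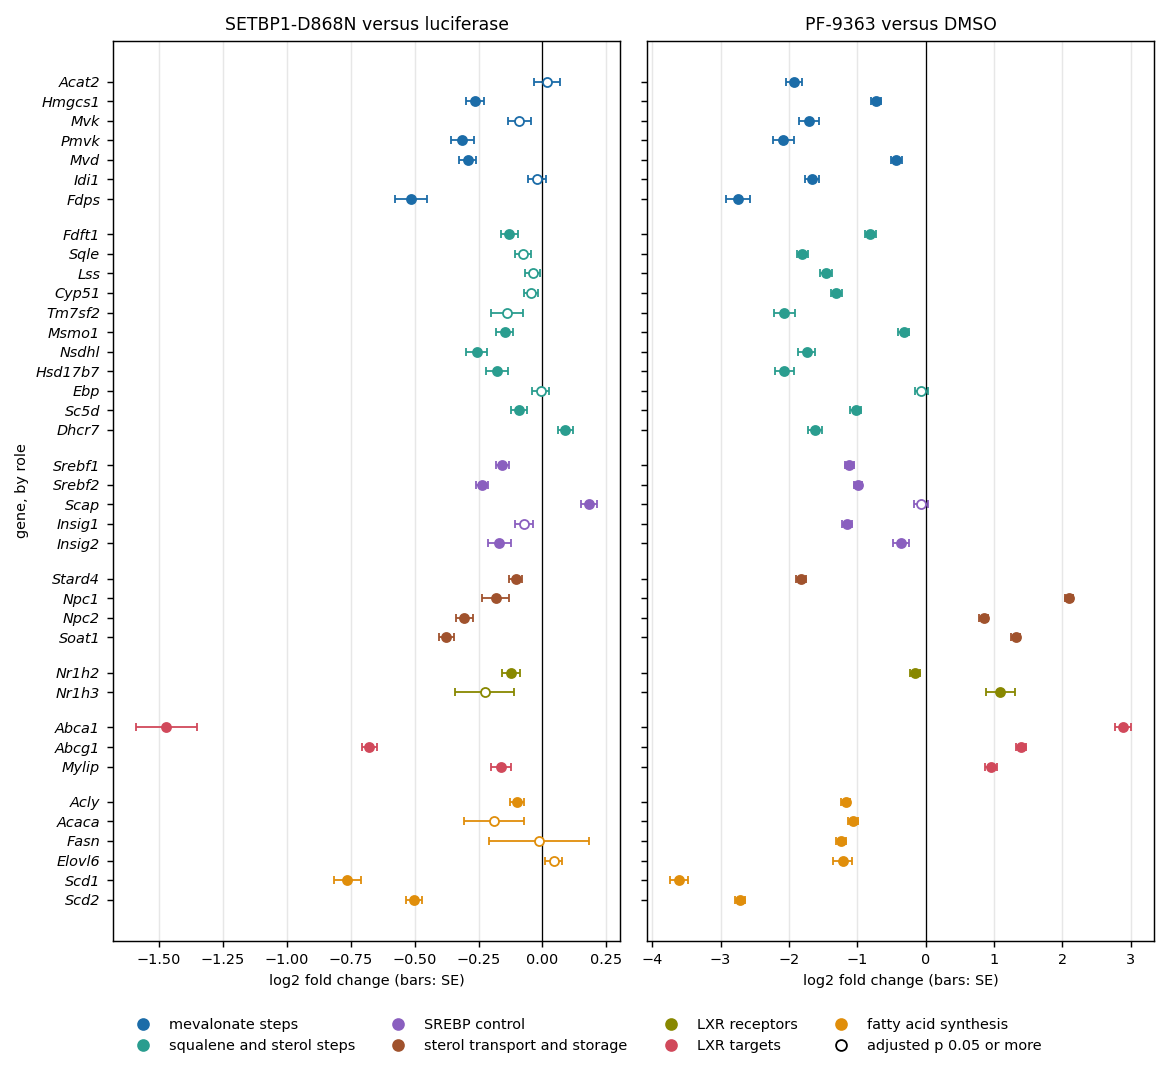
Log2 fold change of the 38 members, grouped by role, for SETBP1-D868N against luciferase (left) and PF-9363 against DMSO (right); bars are standard errors from edgeR, filled points passed the adjusted p threshold, and the horizontal scales differ between panels. Abca1 sits lowest on the left at -1.47 and highest on the right at 2.89, and Scd1 is the lowest on the right at -3.61.

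The mevalonate steps turn acetyl-CoA units into farnesyl diphosphate, the branch point to sterols and to the lipid anchors of proteins. With SETBP1-D868N 4 of the 7 enzymes fell (57.1%, against 22.7 percent of all genes), none rose, and the median log2 fold change was -0.26. Fdps, which makes farnesyl diphosphate, was at 28.8, 30.8 and 28.7 CPM in luciferase and at 22.6, 20.4 and 18.8 CPM in SETBP1-D868N. All 3 mutant libraries lay below all 3 controls, with a log2 fold change of -0.51 (SE 0.064, adjusted p = 6.43e-05 by edgeR). Hmgcs1, the synthase that makes HMG-CoA, was at 207, 214 and 220.0 CPM in luciferase and at 180.4, 183 and 170.2 CPM in SETBP1-D868N. The groups did not overlap, and the log2 fold change was -0.26 (SE 0.034, adjusted p = 4.64e-05 by edgeR). The kinase Pmvk and the decarboxylase Mvd fell by 0.31 and 0.29 on the log2 scale. Acat2, Mvk and Idi1 did not pass, at 0.02, -0.09 and -0.02 on that scale.

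With PF-9363 all 7 fell, against 39.4 percent of all genes, with a median of -1.71. Fdps was at 19.4, 21.5, 24.5 and 23.6 CPM in DMSO and at 3.70, 3.22, 4.66 and 1.95 CPM in PF-9363. The treated libraries all lay far below the controls, and Fdps was 6.72-fold lower (log2 fold change -2.75, SE 0.18, adjusted p = 2.84e-14 by edgeR). Those treated values rested on few counts, with 18 in the lowest library. Acat2, which joins acetyl-CoA units, went from 49.5 ± 3.54 to 12.9 ± 2.69 CPM (SD, n = 4 each), a fall of 1.93. The kinases Mvk and Pmvk fell by 1.71 and 2.08, and the isomerase Idi1 fell by 1.66. Hmgcs1 and Mvd changed least of the 7. Hmgcs1 was at 168, 180.2, 156 and 183 CPM in DMSO and at 107, 115, 104 and 91.0 CPM in PF-9363, again without overlap, with a log2 fold change of -0.72 (SE 0.072, adjusted p = 4.02e-10 by edgeR). Mvd fell by 0.43 on the log2 scale, so that step to step the fall ranged from 1.35-fold for Mvd to 6.72-fold for Fdps.

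The squalene and sterol steps start with Fdft1, squalene synthase, and Sqle, the oxygen-dependent enzyme that is a control point of the branch. Sqle was at 149.6, 150.2 and 153 CPM in luciferase and at 146, 146 and 137 CPM in SETBP1-D868N. All mutant libraries were lower, but the log2 fold change of -0.08 (SE 0.031) did not pass edgeR's test (adjusted p = 0.0614). Of the 11 genes of these steps, 5 fell with SETBP1-D868N (45.5%, against 22.7 percent of all genes). They fell by at most 0.26 (Nsdhl, a sterol dehydrogenase), and the group's median was -0.09. The others called lower were Fdft1 (-0.13), Msmo1 (-0.15), Hsd17b7 (-0.18) and Sc5d (-0.09). Dhcr7, a late reductase of the pathway, rose by 0.09 (adjusted p = 0.0256 by edgeR), a call lost when luciferase 2, luciferase 3 or SETBP1-D868N 1 was left out (adjusted p = 0.0534, 0.129 and 0.102). The call for Sc5d was likewise lost without luciferase 2, luciferase 3 or SETBP1-D868N 3.

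With PF-9363 10 of these 11 genes fell, against 39.4 percent of all genes, with a median of -1.46. Sqle was at 127, 133, 126 and 133 CPM in DMSO and at 44.5, 35.8, 31.5 and 35.5 CPM in PF-9363. No libraries overlapped, and Sqle was 3.50-fold lower (log2 fold change -1.81, SE 0.082, adjusted p = 1.14e-17 by edgeR). Tm7sf2 and Hsd17b7, a reductase each, both fell by 2.07. Nsdhl fell by 1.74, Dhcr7 by 1.62, Lss, which closes the sterol rings, by 1.46, and Cyp51, the first demethylase, by 1.31. Sc5d and Msmo1 changed less, at -1.03 and -0.32. The isomerase Ebp was at 35.6, 29.2, 38.3 and 37.6 CPM in DMSO and at 35.4, 30.9, 32.2 and 35.9 CPM in PF-9363. Its groups overlapped, and the log2 fold change of -0.06 had an SE of 0.099 (adjusted p = 0.561 by edgeR).

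Reads of some members may be shared with overlapping genes, since strand handling during counting is not given in the sources used here. In GENCODE M21, 774 exonic bases of Fdft1 (18.3% of its exon length) lie opposite exons of Ctsb, a lysosomal protease gene. With PF-9363 Ctsb went from 659 to 5122 CPM while Fdft1 went from 80.5 ± 6.25 to 46.1 ± 3.96 CPM (SD, n = 4 each), a log2 fold change of -0.81. Gm48342, antisense to Hmgcs1 over 557 bases, averaged 58.1 CPM in DMSO and 31.7 CPM in PF-9363 but 0.0155 CPM in luciferase. The antisense partner of Lss, 4930483K19Rik, likewise averaged 10.9 CPM in DMSO and 0.00992 CPM in luciferase. The largest overlap was that of Fdps, with 1124 bases (26.7%) shared with Gm43738 on the same strand, a gene at 0 CPM in luciferase and 0.0495 CPM in DMSO. Scap has 985 bases (13.2%) opposite 5830462I19Rik, at 0.0106 CPM in luciferase and 9.55 CPM in DMSO. Tm7sf2 shares 532 bases (12.1%) with Vps51 on the same strand, at 30.8 and 19.3 CPM. The part of such sharing in the values of Fdft1, Hmgcs1, Lss, Fdps, Scap and Tm7sf2 was not tested.

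**Figure D2:**
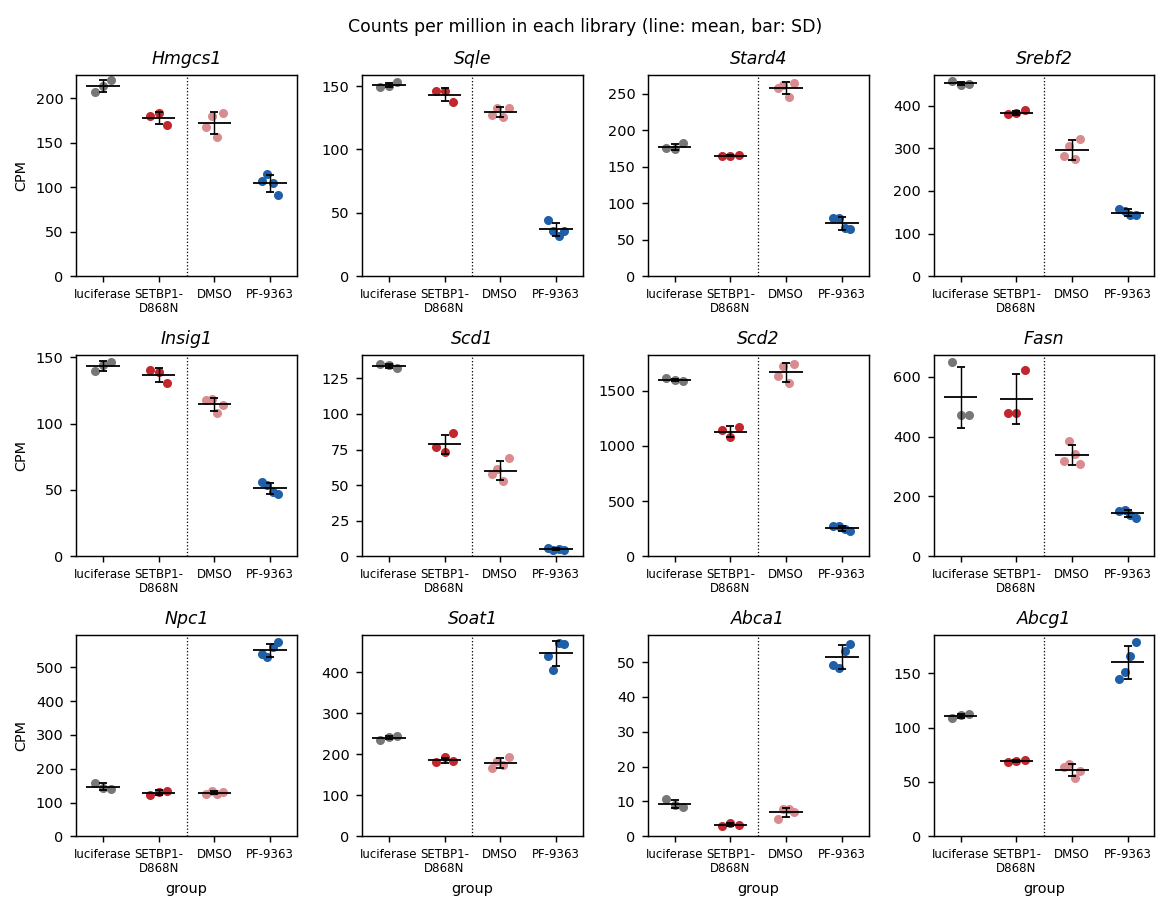
CPM of 12 members in every library of both experiments, with points for libraries and the mean and SD of each group. Sqle, Stard4, Scd1 and Scd2 drop from DMSO to PF-9363 without overlap, while Npc1, Soat1, Abca1 and Abcg1 rise; Fasn is spread within both groups of the first experiment.

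Of the genes that control SREBP, Srebf2 encodes SREBP-2, which drives mainly the sterol enzymes, and Srebf1 encodes SREBP-1, which drives mainly the fatty acid enzymes. Srebf2 was at 458, 450.1 and 450.3 CPM in luciferase and at 380.2, 383 and 389.6 CPM in SETBP1-D868N. The groups were well apart, and the log2 fold change was -0.24 (SE 0.023, adjusted p = 5.59e-06 by edgeR). Srebf1 fell by 0.16 and Insig2 by 0.17. Insig1, itself a well-known SREBP target, was not called at -0.07 (SE 0.034, adjusted p = 0.1 by edgeR). Scap, the escort protein, moved the other way. It was at 73.9, 77.3 and 77.4 CPM in luciferase and at 88.4, 86.0 and 85.3 CPM in SETBP1-D868N, a rise of 0.18 (SE 0.031, adjusted p = 0.000374 by edgeR).

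Under PF-9363 Srebf2 was at 281, 306, 274 and 323 CPM in DMSO and at 158, 152, 142 and 144 CPM with the inhibitor. It was 1.99-fold lower (log2 fold change -0.99, SE 0.065, adjusted p = 4.32e-14 by edgeR), with no overlap. Srebf1 fell by 1.12, and the within-library ratio of Srebf1 to Srebf2 differed by -0.13 on the log2 scale between groups (two-sided exact permutation test, p = 0.229, adjusted p = 0.229 over 5 pairs). Insig1 and Insig2 both retain SCAP, but only Insig1 is under strong SREBP control. Insig1 was at 118, 118, 108 and 114 CPM in DMSO and at 56.0, 53.6, 48.8 and 46.8 CPM in PF-9363, a fall of 1.16. Insig2 fell by 0.36 (SE 0.12, adjusted p = 0.00802 by edgeR), a call lost without PF-9363 library 1 (-0.27, adjusted p = 0.0543). The ratio of Insig1 to Insig2 fell by 0.81 on the log2 scale (exact permutation p = 0.0286, the smallest that 4 against 4 allows, adjusted p = 0.0357), so Insig1 fell further than Insig2. Scap was not called, at -0.07 (SE 0.098, adjusted p = 0.521 by edgeR).

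Fatty acid synthesis begins with Acly, which makes cytosolic acetyl-CoA, and ends with elongation by Elovl6 and desaturation by Scd1 and Scd2. In the first experiment the desaturases carried the change. Scd1 was at 135, 134 and 132 CPM in luciferase and at 76.9, 73.3 and 86.3 CPM in SETBP1-D868N. That is 1.70-fold lower, without overlap (log2 fold change -0.76, SE 0.054, adjusted p = 7.77e-06 by edgeR). Scd2 fell by 0.50, from 1599.8 ± 12.1 to 1129.5 ± 47.5 CPM (SD, n = 3 each). The ratio of Scd1 to Scd2 was lower by -0.26 on the log2 scale (two-sided exact permutation test, p = 0.1, the smallest that 3 against 3 allows, adjusted p = 0.25 over 5 pairs). Acly fell by 0.10, a call lost without luciferase 1 (-0.08, adjusted p = 0.0559). Fasn, the fatty acid synthase, was at 648, 474 and 471 CPM in luciferase and at 478, 478 and 621 CPM in SETBP1-D868N. Luciferase 1 and SETBP1-D868N 3 stood above the other 4 libraries, and the log2 fold change of -0.01 had an SE of 0.20 (adjusted p = 0.961 by edgeR). Without luciferase 1 it was 0.16 (adjusted p = 0.513). Acaca, the carboxylase before Fasn, showed the same 2 libraries highest within their groups, at 68.3 and 59.2 CPM, and like Elovl6 it was not called.

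With PF-9363 all 6 genes of fatty acid synthesis fell, against 39.4 percent of all genes, with a median of -1.23. Scd1 was at 57.5, 61.5, 52.6 and 69.1 CPM in DMSO and at 5.86, 4.63, 5.13 and 4.00 CPM in PF-9363. It was 12.2-fold lower, the largest fold of any member (log2 fold change -3.61, SE 0.13, adjusted p = 3.25e-20 by edgeR). Scd2 and Scd1 both lie on chromosome 19, on opposite strands (chr19:44293674-44306864 and chr19:44394455-44407879 in GENCODE M21 on GRCm38). Scd2 had the highest level per kilobase of exon of all members in DMSO. It was at 1633, 1730.3, 1568 and 1744 CPM in DMSO and at 271, 271, 248 and 227 CPM in PF-9363, or 6.57-fold lower (log2 fold change -2.72, SE 0.069, adjusted p = 2.14e-23 by edgeR). The ratio of Scd1 to Scd2 fell by 0.89 on the log2 scale (exact permutation p = 0.0286, adjusted p = 0.0357 over 5 pairs), so Scd1 fell further. These genes are close copies, and how reads that match both were counted is not given in the sources used here. Fasn was at 319.9, 385, 340.4 and 309 CPM in DMSO and at 152, 154, 139 and 129 CPM in PF-9363, a fall of 1.24. Acly, Acaca and Elovl6 fell by 1.17, 1.06 and 1.22.

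Levels per kilobase of exon allow a rough comparison between genes within an experiment. The length used was that of all annotated exons of a gene together, not of the transcripts expressed. Scd2 stood at 293 CPM per kilobase in luciferase, followed by Acly at 94.6 and Srebf2 at 63.0, and Abca1 was lowest at 0.896. In DMSO Scd2 was at 305 CPM per kilobase and in PF-9363 at 46.5. Npc2 and Npc1 passed it there, rising from 62.6 to 112 and from 11.4 to 48.7 CPM per kilobase, while Abca1 rose from 0.669 to 4.97.

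Sterol transport and storage genes parted from the enzymes under PF-9363. Npc2 binds cholesterol inside the lysosome and hands it to the membrane protein Npc1 for release. Npc1 was at 126, 134, 125 and 132 CPM in DMSO and at 538, 532, 559.5 and 574 CPM in PF-9363. It was 4.26-fold higher in PF-9363, with every treated library far above every control (log2 fold change 2.09, SE 0.060, adjusted p = 3.07e-22 by edgeR). Npc2 rose by 0.85, from 340.3 ± 13.7 to 612 ± 52.8 CPM (SD, n = 4 each). The ratio of Npc1 to Npc2 rose by 1.25 on the log2 scale (exact permutation p = 0.0286, adjusted p = 0.0357 over 5 pairs). The genes Rmc1 and Gm15956 lie opposite exons of Npc1, and they went from 65.4 to 184 and from 13.5 to 54.9 CPM. Their part in the reads of Npc1 was not tested.

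Soat1, which esterifies cholesterol for storage, was at 165, 183, 174 and 193 CPM in DMSO and at 438, 406, 469.6 and 468 CPM in PF-9363. It was 2.49-fold higher in PF-9363, without overlap (log2 fold change 1.32, SE 0.065, adjusted p = 6.59e-17 by edgeR). Stard4, a cytosolic sterol carrier that SREBP-2 is known to induce, moved with the enzymes instead. It was at 258, 262, 245 and 265 CPM in DMSO and at 79.7, 80.1, 66.0 and 64.0 CPM in PF-9363, 3.55-fold lower (log2 fold change -1.83, SE 0.072, adjusted p = 4.33e-19 by edgeR). In the first experiment all 4 genes fell, against 22.7 percent of all genes. Soat1 was at 236, 241 and 244 CPM in luciferase and at 180.5, 192 and 183 CPM in SETBP1-D868N, a fall of 0.38 (SE 0.030, adjusted p = 1.04e-06 by edgeR). Npc2 fell by 0.31, Npc1 by 0.18 and Stard4 by 0.10, the last a call lost with scaling by library size alone (-0.056, adjusted p = 0.121). The call for Npc1 was lost without SETBP1-D868N 1 or SETBP1-D868N 2 (adjusted p = 0.0666 and 0.0662).

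The LXR receptors were a broadly expressed gene, Nr1h2 (LXRβ), and a low one, Nr1h3 (LXRα), which is known for expression in macrophages. Nr1h3 was at 3.27, 3.29, 4.49 and 4.71 CPM in DMSO and at 9.66, 9.65, 4.97 and 8.98 CPM in PF-9363. PF-9363 library 3 was just above the highest control, and the gene was 2.13-fold higher over the group (log2 fold change 1.09, SE 0.21, adjusted p = 4.29e-05 by edgeR). These values rested on 32 to 94 counts a library. Nr1h2 was at 74.2, 80.2, 65.1 and 73.5 CPM in DMSO and at 65.3, 65.6, 65.5 and 65.2 CPM in PF-9363. DMSO 3 was as low as the treated libraries, and the log2 fold change of -0.16 barely passed (adjusted p = 0.0465 by edgeR). The call was lost when any library other than DMSO 3 was left out (adjusted p from 0.0628 to 0.134). The ratio of Nr1h2 to Nr1h3 fell by 1.20 on the log2 scale (exact permutation p = 0.0286, adjusted p = 0.0357). With SETBP1-D868N Nr1h2 fell by 0.12, a call lost without luciferase 2 or luciferase 3 (adjusted p = 0.0665 and 0.0607), and Nr1h3 was not called (-0.23, SE 0.12, adjusted p = 0.134 by edgeR).

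Among the LXR targets, Abca1 and Abcg1 export cholesterol to lipoproteins, and Mylip marks lipoprotein receptors for destruction. Abca1 was at 10.6, 8.98 and 8.29 CPM in luciferase and at 2.94, 3.87 and 3.24 CPM in SETBP1-D868N. It was 2.78-fold lower, without overlap (log2 fold change -1.47, SE 0.12, adjusted p = 2.51e-06 by edgeR). Abcg1 was at 108, 111 and 112 CPM in luciferase and at 68.0, 69.7 and 70.0 CPM in SETBP1-D868N, 1.60-fold lower (log2 fold change -0.68, SE 0.029, adjusted p = 1.25e-08 by edgeR). Mylip fell by 0.16, from 34.8 ± 0.667 to 31.2 ± 0.990 CPM (SD, n = 3 each). All 3 targets therefore fell, unequally, against 22.7 percent of all genes called lower.

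With PF-9363 all 3 rose, against 36.6 percent of all genes called higher. Abca1 was at 5.05, 7.97, 7.76 and 6.97 CPM in DMSO and at 49.1, 48.2, 53.3 and 55.2 CPM in PF-9363. It was 7.40-fold higher with PF-9363, the largest rise of any member (log2 fold change 2.89, SE 0.12, adjusted p = 1.52e-18 by edgeR). Abcg1 was at 63.3, 66.4, 53.4 and 60.5 CPM in DMSO and at 145, 152, 166 and 179 CPM in PF-9363, a rise of 1.40 (SE 0.077, adjusted p = 1.24e-15 by edgeR). Mylip was at 25.0, 25.8, 29.1 and 24.4 CPM in DMSO and at 50.3, 53.6, 51.9 and 47.2 CPM in PF-9363, a rise of 0.96 (SE 0.090, adjusted p = 1.18e-10 by edgeR). No library of either group overlapped for any of the 3 genes.

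**Figure D3:**
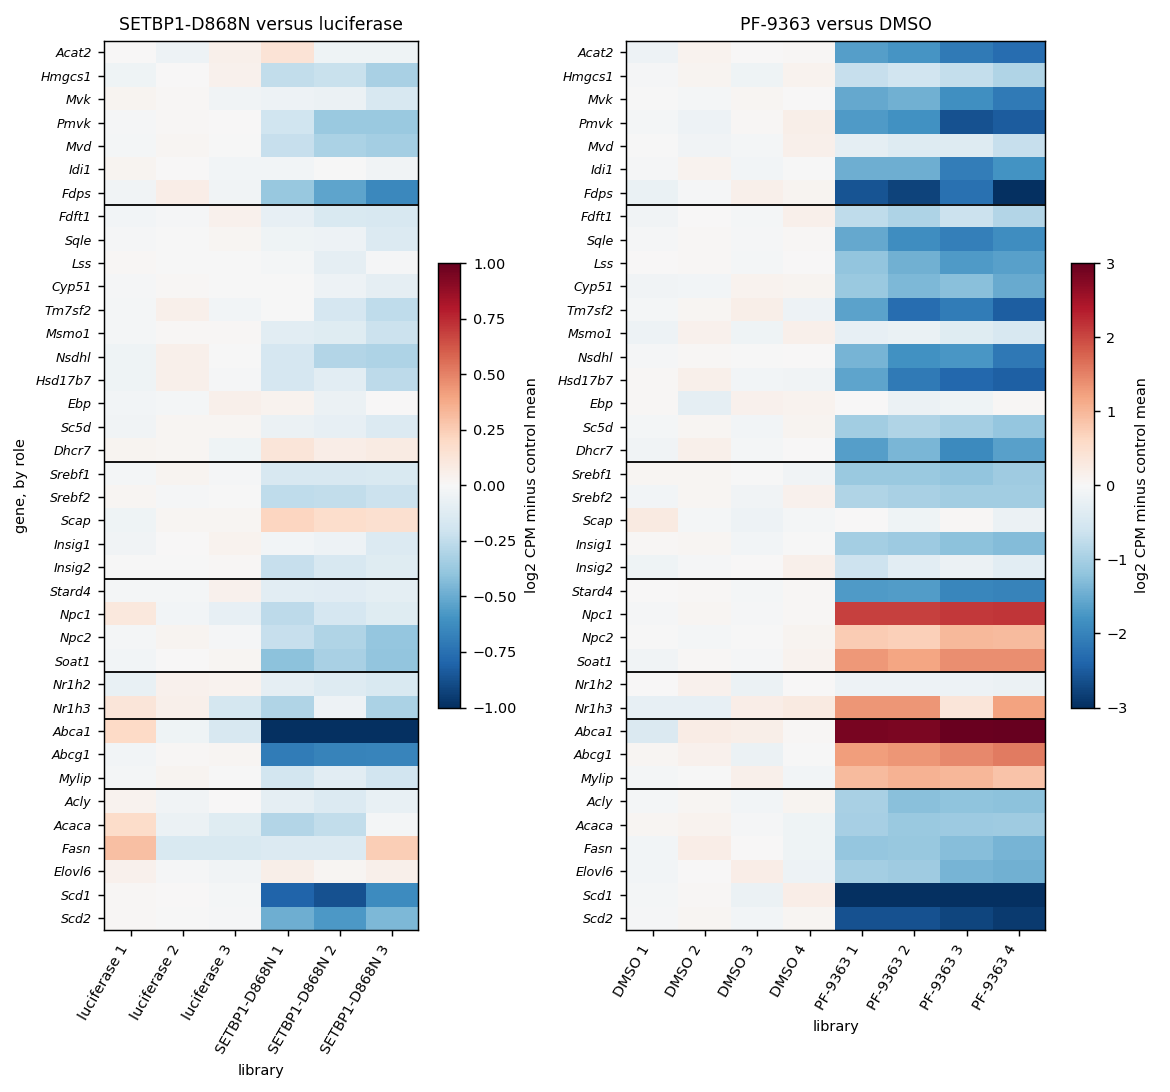
Log2 CPM of every member in every library, minus the mean of the control libraries of the same experiment; columns are libraries, rows are members by role, and the colour scale spans -1 to 1 on the left (luciferase and SETBP1-D868N) and -3 to 3 on the right (DMSO and PF-9363). The PF-9363 columns are lower than DMSO in the enzyme rows other than Ebp, whose groups overlap, and higher in Npc1, Npc2, Soat1, Nr1h3 and the 3 LXR targets.

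The comparison of SREBP2 targets with LXR targets was made within each library, as the mean log2 deviation of a list from its control mean. In SETBP1-D868N the 20 SREBP2 targets averaged -0.13 (range -0.18 to -0.08 over 3 libraries) and the LXR targets -0.77 (range -0.84 to -0.68). The SREBP2 targets minus the LXR targets therefore ran from 0.54 to 0.76 in SETBP1-D868N and from -0.06 to 0.05 in luciferase. In PF-9363 the SREBP2 targets ranged from -1.66 to -1.23 and the LXR targets from 1.68 to 1.81 over 4 libraries. The difference between the lists ran from -3.47 to -2.91 there and from -0.10 to 0.09 in DMSO. Both lists were thus lower with SETBP1-D868N, and they moved in opposite directions with PF-9363. The LXR list holds only Abca1, Abcg1 and Mylip and does not stand for every gene that LXR may drive. Fasn and Srebf1, whose windows hold the looser LXR form, are outside it and fell by 1.24 and 1.12 with PF-9363. Of the 4 other LXR targets outside the 38 members, 3 were higher and 1 lower with PF-9363, against 36.6 and 39.4 percent of all genes. By count, 10 of 20 SREBP2 targets were lower and 1 higher with SETBP1-D868N, against 22.7 and 24.5 percent of all genes. With PF-9363 19 of 20 were lower, against 39.4 percent of all genes. These scores describe chosen genes and carry no test.

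**Figure D4:**
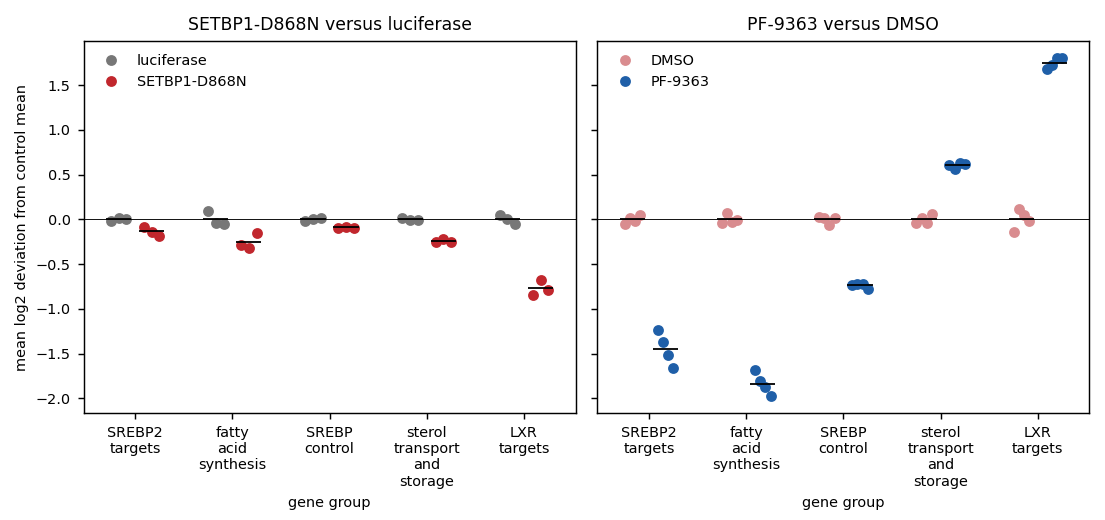
Mean log2 deviation from the control mean for 5 lists of members in each library, in the first experiment (left) and the second (right); each point is 1 library. In PF-9363 the points of the LXR targets (1.68 to 1.81) lie above those of the SREBP2 targets (-1.66 to -1.23), whereas both lists are below 0 in SETBP1-D868N.

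The experiments shared no library, and their calls can be set side by side. Of the 38 members, 17 (44.7%) were called lower in both, against 544 of the 12376 genes tested in both (4.40%). These 17 include Fdft1, Sc5d, Stard4, Nr1h2 and Acly, whose SETBP1-D868N calls were lost with scaling by library size alone. For Nr1h2 the PF-9363 call also barely passed. Members lower with SETBP1-D868N and higher with PF-9363 numbered 6, namely Abca1, Abcg1, Mylip, Npc1, Npc2 and Soat1. Their share of 15.8% was near that of all genes, 16.8%. Dhcr7 was the 1 member (2.63%) higher in the first experiment and lower in the second, against 18.1% of all genes, and 0 members were higher in both, against 4.65%. A further 11 members (28.9%), among them Sqle, Insig1, Fasn and Acat2, were called lower with PF-9363 and not called with SETBP1-D868N, against 17.8% of all genes. That difference was not itself tested.

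Markers of other cell types and of cell division moved in the same libraries. Of all genes, 39.4 percent were called lower and 36.6 percent higher with PF-9363, and 22.7 and 24.5 percent with SETBP1-D868N. With PF-9363 all 10 macrophage markers were higher, with a median log2 fold change of 2.80, and their summed level went from 570.1-725 CPM in DMSO to 4637-5718 CPM. All 9 mast cell markers tested were higher as well, from 748-941 to 4175-5147 CPM. Of 10 markers of neutrophils and their precursors, 5 were lower and 2 higher, with a median log2 fold change of -0.85 (range -9.66 to 1.44). Their summed level went from 19081-22340 to 16685-18162 CPM. All 10 cell division markers were lower, with a median of -2.63, from 2302-2471 to 395-693 CPM. Of 10 progenitor markers 6 were higher and 2 lower, from 847-858 to 1077-1150 CPM. Only 4 of the 10 erythroid and megakaryocyte markers were tested, of which 3 were higher and none lower. The summed level of that list went from 45.1-50.9 to 215-238 CPM. Of the 4 tested only 1 was called at least 2-fold higher, and the median log2 fold change was 0.57 (range -0.81 to 2.65). In the first experiment 9 of 10 macrophage markers were lower and none higher, with summed levels of 1122-1214 CPM in luciferase and 714-846 CPM in SETBP1-D868N. There 7 mast cell markers were lower and 3 higher, from 3567-3791 to 2737-2851 CPM. Of the neutrophil markers 6 were lower and 4 higher, from 25052-26081 to 17178-19712 CPM, and 6 of 10 cell division markers were higher and none lower. Progenitor markers were split, with 5 higher and 4 lower, from 1583-1604 to 1715-1748 CPM. Erythroid and megakaryocyte markers were split too, with 4 higher and 3 lower, from 295-313 to 308-333 CPM. The lymphoid markers Cd3e, Cd8a and Ms4a1 and the stromal markers Col1a2 and Cxcl12 were at 0 in every library of the second experiment. The 2 lymphoid markers tested there, Ighm and Nkg7, were both lower with PF-9363, and the list's summed level went from 88.0-106 to 5.44-7.09 CPM. Of the 2 stromal markers tested, Pdgfrb was higher and Col1a1 was not called, and that list went from 3.39-4.67 to 6.52-8.43 CPM. The part of these shifts in the values of the enzymes, of Npc1, Npc2 and Soat1 and of the LXR targets was not tested.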

How the data were processed

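Messenger RNA of 14 libraries was measured in 2 experiments. Per the labels, the authors' deposited tables hold raw counts, with a row per gene symbol and a table per experiment. The submitters' processing notes name STAR, DESeq2, GRCm38 and mm10, with no role or order; the counting program, annotation and strand handling are not given in the sources used here. Groups came from the sample titles, and 0 columns of samples were left unmapped.

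Each table was analysed alone in R 4.3.3. Genes passed filterByExpr of edgeR 4.0.16 (minimum count 10, minimum total 15), TMM scaling gave the CPM printed here, and edgeR's quasi-likelihood test (robust glmQLFit) compared the groups. P-values were Benjamini-Hochberg adjusted over all genes tested, with calls at an adjusted p under 0.05. Standard errors (SE) are the absolute log2 fold change over the square root of F. The procedure was tested on simulated data. Library ratios and scores used a pseudocount of 0.5; the 5 ratios of paired genes had a two-sided exact permutation test, whose smallest p is 0.1 for 3 against 3 libraries. GENCODE M21 gave exon lengths and overlaps, and RefSeq the promoters (8 members were not in that table).

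The members and lists were chosen with earlier results of these data known. All members could be named. Of the related genes in the context lists, the 3 per comparison and direction with the largest change were named, among those called with at least 5 CPM in the higher group. The looser motifs were added after seeing the data. Alternatives were RLE or library-size scaling, 2 other filters, DESeq2 1.42.0, limma-voom (limma 3.58.1), no robust estimation, a replicate block and leaving out each library.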

Additional observations from a re-analysis of the deposited data

Results flagged for a closer look

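Among 92 groups of 4 libraries examined, 3 had a library far from the other three by Dixon's criterion, and chance gives about 1 in 20, or 4.6. Nr1h3 was at 4.97 CPM in PF-9363 library 3, whereas the others were at 8.98 to 9.66 CPM. The log2 ratio of Nr1h2 to Nr1h3 was accordingly 3.70 in that library and 2.75 to 2.85 in the others. The log2 ratio of Npc1 to Npc2 was -1.29 in DMSO library 2 and -1.45 to -1.42 in the other DMSO libraries. Groups of 3 libraries were too small for this criterion.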

How the results depend on the processing

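With PF-9363 the 7 members called higher were 7 under every alternative, and members called lower ranged from 27 to 31 against 29. With SETBP1-D868N members called lower ranged from 18 (library size alone) to 25 against 23. The 2 called higher became 1 with DESeq2 and with the replicate block, and 1 to 2 when each library was left out. Scaling by library size alone moved the median of all genes by 0.05 and -0.23 on the log2 scale. It moved the SREBP2 targets' median to -0.050 with SETBP1-D868N and to -1.87 with PF-9363, and that of the LXR targets to -0.63 and 1.16. The share of all calls that were higher went from 51.9% to 62.1% and from 48.1% to 36.2%. Under the same scaling the SETBP1-D868N log2 fold changes of 5 uncalled members turned positive: Idi1 0.028, Lss 0.011, Cyp51 0.0031, Ebp 0.042 and Fasn 0.035. Calls for Fdft1, Sc5d, Stard4, Nr1h2 and Acly were lost in that fit, Elovl6 was called higher at 0.09, and with PF-9363 Ebp and Scap were called lower at -0.29 and -0.30. With single libraries left out, uncalled members changed sign within -0.15 to 0.16 (Fasn), -0.048 to 0.049 (Acat2) and -0.031 to 0.017 (Ebp) with SETBP1-D868N, and within -0.13 to 0.021 (Scap) with PF-9363. Same-numbered libraries did not deviate together (residual correlations from -0.0966 to 0.00967), so the numbers were not taken to pair them. With the replicate number as a block, 3416 genes were higher and 3224 lower with SETBP1-D868N, and 4885 and 5239 with PF-9363. The block ended the calls of Sc5d, Dhcr7 and Npc1 with SETBP1-D868N and of Nr1h2 with PF-9363, and no library correlated best with the library of its own number. That Nr1h2 call was also lost with RLE scaling, the mean count filter, DESeq2 and limma-voom (adjusted p from 0.0503 to 0.124). In the 250 bases before the start alone, the sterol element lay in 1.05%, the CCAAT box in 33.8% and the GC box in 32.7% of all promoters. The looser elements, chosen after seeing the data, lay in 6.24% (sterol) and 0.207% (LXR) of the wider windows and in 3 of 39 member windows (7.69%) each. The causes were not tested. Depth limits the low members of the second experiment: Nr1h3, Fdps and Scd1 held as few as 32, 18 and 33 counts in a library.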

Other observations

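Related genes outside the 38 moved in part with them. With PF-9363, 39.4 percent of all genes were called lower and 36.6 percent higher. Of the 13 sterol and isoprenoid genes tested, 8 were lower (61.5%) and 4 higher (30.8%), and of the 7 genes of sterol uptake and lysosomal release 5 were higher (71.4%) and 2 lower (28.6%). Ch25h, which makes the oxysterol 25-hydroxycholesterol, rose from 3.60 ± 0.624 to 28.5 ± 9.21 CPM (SD, n = 4 each). Lipa, the lysosomal lipase that frees cholesterol from its esters, was at 83.8 ± 4.35 CPM in DMSO and 558 ± 66.0 CPM in PF-9363, higher by 2.74 on the log2 scale. Cd36, a scavenger receptor for lipids, rose by 2.88 on that scale. The fatty acid desaturase Fads2 fell by 2.77, the lipoprotein receptor Vldlr by 2.32 and the acyltransferase Gpam by 1.98. The list of fatty acid and lipid synthesis genes, which holds Fads2 and Gpam, was split. Of its 13 genes tested 5 were lower (38.5%) and 4 higher (30.8%), near the shares of all genes. Of the 4 other LXR targets, 3 were higher and 1 lower.

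With SETBP1-D868N all 4 of those LXR targets were lower, where 22.7 percent of all genes were called lower and 24.5 percent higher. Arl4c, a small GTPase, fell from 130.3 ± 1.88 to 68.6 ± 1.79 CPM (SD, n = 3 each), at -0.93 on the log2 scale. The endocytic receptors Lrp1 and Vldlr fell by 0.85 and 0.65 (adjusted p = 0.0495 and 0.0398 by edgeR), with a wide spread in luciferase for Lrp1 (49.0 ± 13.0 CPM). Of the sterol and isoprenoid genes, 3 of 13 were lower (23.1%, near the share of all genes) and 7 higher (53.8%). Of the latter, Tmem97, a sterol-regulated membrane protein, rose by 0.29 and Pdss1, of coenzyme Q synthesis, by 0.27. Gpam rose by 0.32, but of the 13 fatty acid and lipid synthesis genes tested 6 were lower (46.2%) and 2 higher (15.4%). Macrophage markers, and most mast cell markers, moved in the direction of the LXR targets in each experiment, and the part of either was not tested.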
